A study of Mus musculus with 2 samples.

Results

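The genes described here encode the machinery that passes a signal from heterotrimeric G proteins to cyclic AMP and cyclic GMP: G protein alpha, beta and gamma subunits, adenylyl cyclases, phosphodiesterases, the subunits of cyclic AMP-dependent protein kinase (protein kinase A) and its anchoring proteins. They were chosen by name, as rows of the deposited gene table whose symbols begin with the family stems of these proteins. The rule uses no expression value, but the stems were chosen with earlier results of these data known. The choice gave 63 of 12557 rows, or 62 of 12446 symbols, since Pde4d has 2 entries. The 62 genes were among 88 protein-coding mouse genes of GENCODE release M 21 whose names match the stems, and the other 26 were not analysed here. Every gene of the table reaches 1 RPKM (reads per kilobase of exon, scaled to library size) in at least 1 library.

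The study sequenced RNA from cells sorted from the embryonic mouse sinoatrial node, the pacemaker region of the heart. All embryos were of the ICR strain and carried Hcn4-CreERT2, a tamoxifen-inducible recombinase active where the pacemaker channel gene Hcn4 is transcribed, and a Rosa-tdTomato reporter. The mutant embryos carried floxed Isl1 (Isl1f/f) and the control embryos intact Isl1 (Isl1+/+). Tamoxifen was given at E10.5, also to the controls, and nodes were taken 36 hours later, labelled E12.5. Nodes of a genotype were pooled, endothelial cells were removed with CD31 beads and tdTomato-positive cells were sorted, so each genotype is 1 pooled library, and the sources used here do not give the number of embryos. Recombination is limited to cells with active Hcn4, and a cell whose Isl1 was not removed can still carry the reporter.

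In pacemaker cells, receptors for noradrenaline act through the stimulatory alpha subunit on adenylyl cyclase, and the cyclic AMP made there opens Hcn4 channels directly and activates protein kinase A. Acetylcholine and adenosine act through inhibitory alpha subunits, and the released beta-gamma pair opens a potassium channel that slows the beat. Phosphodiesterases break down both cyclic nucleotides and, with anchoring proteins, keep their signals local.

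With 1 library per genotype there was no replicate error and no test was made. Differences are given by size, and the interval beside a fold is an exact 95% interval that covers counting error alone (PCR copies of a molecule are not independent). Depth was 110117186 reads for control and 119018888 for mutant. Isl1 stood at 7.65 RPKM in control and 1.52 RPKM in mutant, 5.02-fold lower (interval 4.53 to 5.56). Of the pacemaker markers, 7 of 7 measured were lower in the mutant library, a count that includes the deleted Isl1 itself. Their summed level was 104 RPKM in control and 48.1 RPKM in mutant, of which Bmp4 alone held 53.0 and 24.7 RPKM. Hcn4 itself was low in both (1.99 and 0.541 RPKM). Any marker under 1 RPKM in 1 library, such as Hcn4, had to differ to be listed. Heart muscle markers were abundant and higher in 9 of 9 cases, at a summed 12174 and 17832 RPKM. Markers of other cells moved too. Erythroid markers were lower in 11 of 11 cases (summed 416 and 73.0 RPKM), macrophage and blood markers in 8 of 8 (45.4 and 8.18 RPKM) and mesenchymal markers in 10 of 10 (437 and 206 RPKM). Endothelial markers were lower in 7 of 8 cases (25.1 and 12.9 RPKM), neural markers in 4 of 6 (21.7 and 18.3 RPKM), epicardial markers in 4 of 9 (121 and 153 RPKM) and smooth muscle markers in 2 of 7 (983 and 1567 RPKM). None of the measured markers was listed at 0, and the part of these cells in the results below was not tested. In pooled cells, fewer cells of a type and less RNA per cell cannot be told apart.

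Across the 62 genes most ratios lay within 1.5-fold, and a few named genes passed a size rule. Pde10a, a phosphodiesterase of cyclic AMP and cyclic GMP, was higher in the mutant library, while Gnb2, a G protein beta subunit, and Akap12, the anchoring protein gravin, were lower. The size rule asked for a log2 difference of at least 1 in either direction after adding 1 RPKM to both values, and counted a gene only where it reached 5 RPKM in at least 1 library. Of 29 members at that level, 1 was higher (3.45%), beside 1.01% of all 6343 genes at that level. In the other direction 2 were lower (6.90%), beside 2.68% of all genes. Over the whole table the rule gave 64 higher and 170 lower genes, and 83 and 130 with mutant scaled to the 75th percentile of control. Under that scaling Gnb2 still passed and Akap12 did not, and with the level trend removed neither passed. The log2 ratios without a pseudocount went for Gnb2 from -1.24 to -1.09 with the trend removed, and for Akap12 from -1.21 to -1.11 under that scaling and -1.06 with the trend removed. Pde10a reached 5 RPKM in the mutant library only, and Gnb2 and Akap12 in the control library only. Of the 62 genes, 40 were lower and 22 higher with no minimum size, and 64.5% lower stands beside 67.1% over the whole table. Their median log2 ratio was -0.28, beside -0.22 over all 12446 genes. Of the 62, 39 lay within 1.5-fold, a share that was not computed for all genes. Counts within 1.5-fold given by family below lack that comparison too, and do not show that a family was steadier than other genes. Another measure placed 18 of the 62 outside the 10th to 90th percentile of all genes of like level. By construction, that band leaves out the lowest 10% and the highest 10% of all genes in each level range.

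The ratio moved with level in these libraries, which bears on the many low members. The median log2 ratio of all genes was -0.62 below 2 RPKM, -0.31 from 2 to 5 RPKM, -0.18 from 5 to 10 RPKM and 0.09 from 100 RPKM upward. Of the 33 members under 5 RPKM in both libraries, 9 were at least 2-fold lower (27.3%), beside 23.5% of all such genes. Another 2 were at least 2-fold higher (6.06%), beside 5.33% of all such genes. A gene below 1 RPKM in 1 library entered the table only through the other library and so had to differ. There were 8 such members on the low side in mutant (12.9%, beside 12.9% of all genes). On the low side in control there were 3 (4.84%, beside 3.75% of all genes). The ratios of all these members are given as values only.

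**Figure D1:**
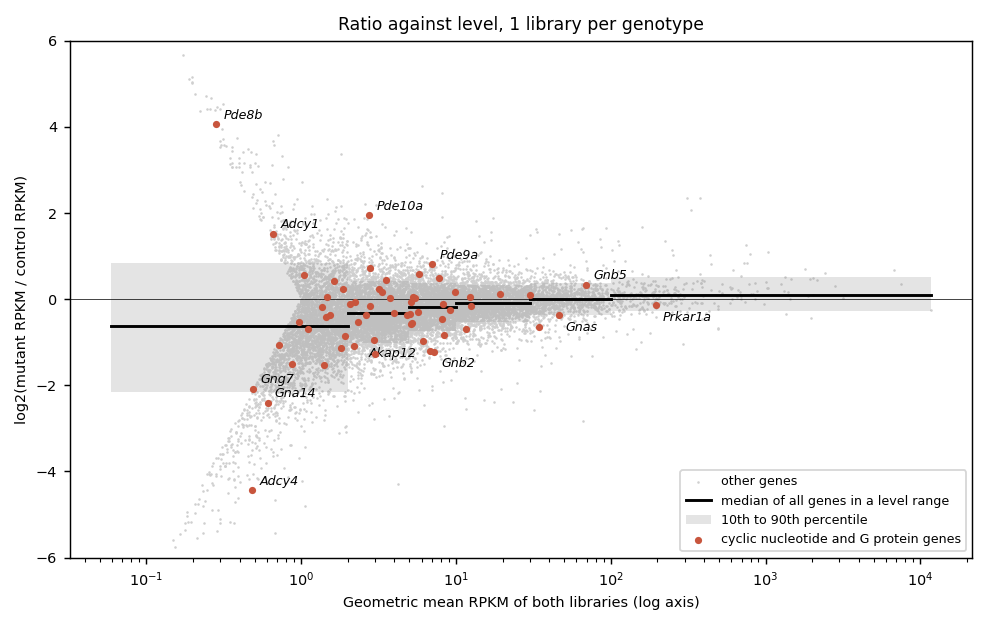
log2 ratio of mutant to control RPKM (vertical axis) against the geometric mean RPKM of both libraries (horizontal log axis) for 62 cyclic nucleotide and G protein genes (red) and all other genes (grey), with the median and the 10th to 90th percentile of all genes in 6 level ranges. Most red points lie inside the grey band, Pde10a (1.95) and Pde8b (4.06) lie above it, and Adcy4 (-4.43) and Gna14 (-2.40) below it.

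The alpha subunits bind the receptor and carry the signal to the effector enzyme, and their transcripts were mostly somewhat lower in the mutant library. Of 11 measured, 10 were lower, beside 67.1% of all genes, and 9 were within 1.5-fold. Gnas, the gene of the stimulatory alpha subunit, was the most abundant in both libraries, at 52.2 RPKM in control and 40.7 RPKM in mutant, 1.28-fold lower (interval 1.25 to 1.31). It lies in an imprinted locus and overlaps AF085738 on the opposite strand for 16394 bases. That gene stood at 90.0 and 69.1 RPKM, and the library kit does not mark strand, so the reads cannot be separated. Gnai3, an inhibitory alpha subunit gene, was second and differed more, at 42.7 and 27.4 RPKM, 1.56-fold lower (interval 1.52 to 1.596).

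The other inhibitory alpha genes showed smaller differences. Gnai2 stood at 6.28 RPKM in control and 5.08 RPKM in mutant and was 1.24-fold lower (interval 1.14 to 1.34). Gnai1 stood at 2.14 and 1.98 RPKM, and its interval included no difference (ratio mutant over control 0.925, interval 0.827 to 1.04). Gnao1, the alpha subunit gene best known from neurons, stood at 10.03 and 8.42 RPKM, 1.19-fold lower. The 4 genes of the inhibitory class summed to 61.1 RPKM in control and 42.9 RPKM in mutant, 70.2% of control, and most of that gap is Gnai3.

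The remaining alpha subunit genes were of moderate to low level. Gna11 stood at 5.71 and 4.50 RPKM (1.27-fold lower) and Gnaq at 2.97 and 2.65 RPKM (1.12-fold lower), both activators of phospholipase C beta. Gna13 and Gna12, which form a class of their own among alpha subunits, were 1.30-fold and 1.29-fold lower, at 5.51 and 4.24 RPKM and at 2.98 and 2.32 RPKM. Gna14, a relative of Gnaq with a narrower distribution among tissues, stood at 1.40 RPKM in control and 0.264 RPKM in mutant, from at least 171 and 35 reads, 5.28-fold lower (interval 3.65 to 7.83). It is one of the members below 1 RPKM in mutant. Gnal, the stimulatory alpha subunit gene of olfactory neurons and striatum, was the only alpha gene higher, at 1.72 and 2.03 RPKM (1.18-fold), and it overlaps Chmp1b on its own strand.

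Beta subunits form a fixed pair with gamma, and here their transcripts parted ways. Gnb2 (ENSMUSG00000029713, chromosome 5, 137969355 to 137974738, minus strand, mm9) stood at 11.04 RPKM in control and 4.69 RPKM in mutant, 2.35-fold lower, with an interval of 2.19 to 2.53 on no fewer than 2455 and 1127 reads. Gnb1 stood at 8.64 and 4.40 RPKM, 1.97-fold lower (interval 1.85 to 2.09), and did not pass the size rule. Both are general beta subunits found in most cells, and both lay below the 10th percentile of genes between 5 and 10 RPKM, which is -0.74 (log2), at -1.24 and -0.98. Gnb4 was 1.25-fold lower (4.47 and 3.58 RPKM), and the low Gnb3, a beta subunit of cone photoreceptors and some other cells, was 1.35-fold higher (1.41 and 1.90 RPKM).

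Gnb5 went the other way from Gnb1 and Gnb2. Its product is the atypical beta subunit that pairs with the R7 class of RGS proteins in place of a gamma subunit and speeds the end of inhibitory G protein signals, and loss of human GNB5 causes a slow sinus rhythm. Gnb5 stood at 61.8 RPKM in control and 77.9 RPKM in mutant, 1.26-fold higher (interval 1.20 to 1.33). It was the most abundant G protein subunit transcript in both libraries on the per-length scale, although its value can rest on as little as 359 bases of exon. Gnb5 made up 70.7% of the summed beta RPKM in control and 84.2% in mutant, while Gnb2 went from 12.6% to 5.07% and Gnb1 from 9.89% to 4.75%. Such shares do not depend on how the libraries are scaled. Gnb1 to Gnb4 together summed to 25.6 and 14.6 RPKM, 57.0% of control.

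Gamma subunits anchor the beta partner to the membrane. Gng2 was the most abundant, at 14.7 RPKM in control and 9.10 RPKM in mutant, 1.61-fold lower (interval 1.55 to 1.68). Gng5 differed in the other direction, at 4.72 and 7.05 RPKM, 1.49-fold higher (interval 1.40 to 1.595), and moved from rank 4 to rank 2 among the 7 gamma genes. Gng10 stood at 9.50 and 6.96 RPKM (1.37-fold lower) and shares 6801 bases with Gm20503 on the same strand, which stood at 12.02 and 8.69 RPKM. Gng11, Gng12 and Gng13 had intervals that included no difference, with ratios of 1.02, 1.02 and 1.13. Gng7, a partner of Gnal in striatal neurons, was near the entry level, at 1.005 and 0.237 RPKM, 4.24-fold lower (interval 3.34 to 5.42).

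**Figure D2:**
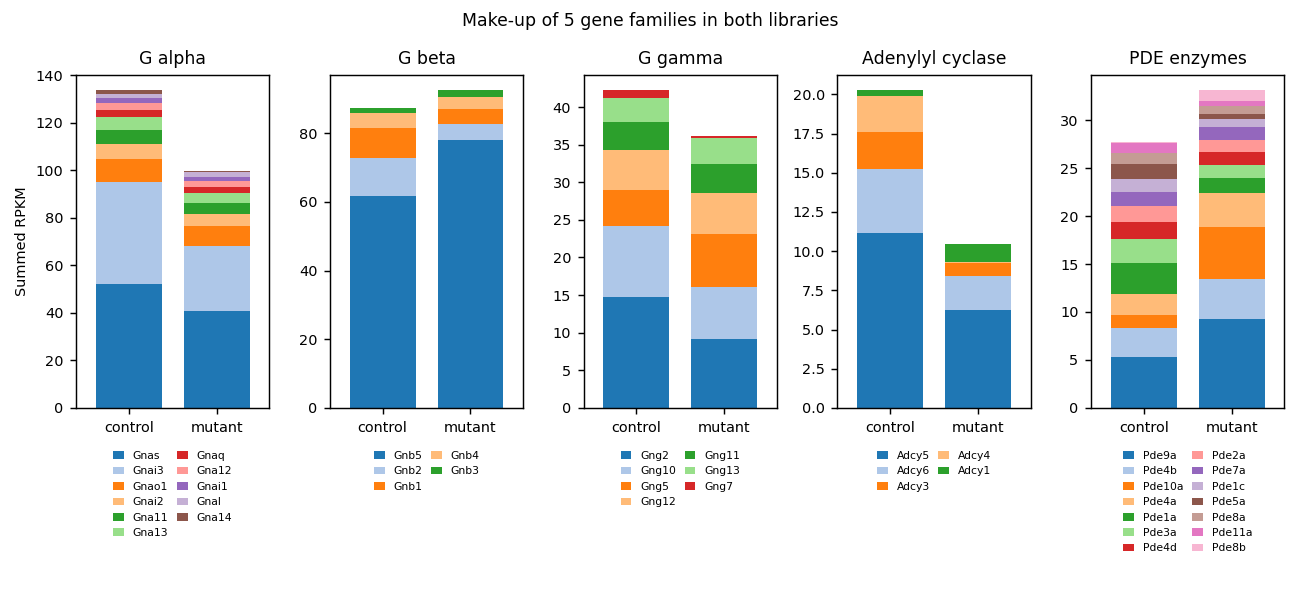
Summed RPKM (vertical axes, starting at 0 and scaled per panel) of G alpha, G beta, G gamma, adenylyl cyclase and phosphodiesterase enzyme genes in the control and the mutant library, stacked by gene in order of level. The adenylyl cyclase bar is 51.5% as tall in mutant, Gnb5 takes 84.2% of the beta bar in mutant, and Pde10a and Pde9a widen in the phosphodiesterase bar.

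Adenylyl cyclases make cyclic AMP from ATP, and both of the more abundant genes stood lower in the mutant library. The 5 measured genes summed to 20.3 RPKM in control and 10.4 RPKM in mutant, 51.5% of control, a sum that includes 3 genes that had to differ to be listed. Adcy5 and Adcy6, the calcium-inhibited forms that predominate in heart muscle, were the most abundant in both libraries. Adcy5 stood at 11.1 and 6.26 RPKM, 1.78-fold lower (interval 1.70 to 1.85). Adcy6 stood at 4.09 and 2.13 RPKM, 1.92-fold lower (interval 1.81 to 2.05). Both differences exceeded the median of genes of like level (-0.83 beside -0.18, and -0.94 beside -0.31, log2). Adcy5 also lay below the 10th percentile of its level (-0.74) and Adcy6 did not (-1.01). Neither gene passed the size rule.

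The other cyclases were low. Adcy3 stood at 2.40 and 0.829 RPKM, 2.89-fold lower (interval 2.42 to 3.47), and overlaps Cenpo on the opposite strand for 17522 bases. Adcy4, a form stimulated by beta-gamma subunits, stood at 2.25 RPKM in control and 0.104 RPKM in mutant, from at least 939 and 47 reads, 21.6-fold lower (interval 16.1 to 29.6). This was the lowest ratio among the members. Adcy1, the calcium-calmodulin-stimulated form known from neurons and reported in sinoatrial cells of rodents, was the only cyclase higher, at 0.388 and 1.12 RPKM, 2.87-fold (interval 2.49 to 3.32). Adcy1 took 1.92% of the summed cyclase RPKM in control and 10.7% in mutant. Adcy3 and Adcy4 are below 1 RPKM in mutant and Adcy1 in control, so each had to differ to be listed.

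The phosphodiesterase enzymes went both ways, with 5 of 14 genes higher and 9 lower (64.3%, beside 67.1% of all genes). Pde1c, Pde5a, Pde8a and Pde11a (below 1 RPKM in mutant) and Pde8b (in control) had to differ to be listed. The summed level of the 14 genes was 27.7 RPKM in control and 33.1 RPKM in mutant, 120% of control, which rests on a few higher genes. Pde10a (ENSMUSG00000023868, chromosome 17, 8718237 to 9179513, plus strand, mm9) stood at 1.41 RPKM in control and 5.41 RPKM in mutant, 3.85-fold higher (interval 3.46 to 4.30, from at least 413 and 1719 reads). It moved from rank 11 to rank 2 among the 14 enzymes. Pde9a, a phosphodiesterase specific for cyclic GMP and linked in heart to the pool made by natriuretic peptide receptors, stood at 5.30 and 9.31 RPKM, 1.76-fold higher (interval 1.65 to 1.87), and ranked first in both.

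Cyclic AMP-specific enzymes, the families of Pde4, Pde7 and Pde8, split evenly. Pde4b stood at 3.02 and 4.14 RPKM (1.37-fold higher, interval 1.30 to 1.45) and Pde4a at 2.16 and 3.58 RPKM (1.66-fold higher, interval 1.55 to 1.77). Pde4a shares all its span with Ppan on the same strand, at 11.9 and 10.2 RPKM, and reads of the shared stretch cannot be assigned. Pde4d, the form bound to the ryanodine receptor in mouse heart, has 2 entries on chromosome 13, at 1.75 and 1.35 RPKM for the long one (1.29-fold lower) and at 1.93 and 0.639 RPKM for a 1-exon entry (3.03-fold lower). Pde8b stood at 0.0691 RPKM in control and 1.15 RPKM in mutant. Its control value rests on as few as 3 reads, and the ratio of 16.7 has an interval of 5.40 to 83.3. Pde8a and Pde7a were 1.45-fold and 1.14-fold lower.

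Enzymes that accept both nucleotides were mostly lower. Pde3a, which is inhibited by cyclic GMP and regulates contraction and pacing in heart, stood at 2.57 and 1.43 RPKM, 1.80-fold lower (interval 1.604 to 2.01). Pde1a and Pde1c, the calcium-calmodulin-activated forms, were 2.11-fold lower (3.18 and 1.504 RPKM) and 1.63-fold lower (1.42 and 0.869 RPKM). Pde2a, which cyclic GMP stimulates, was 1.32-fold lower (1.67 and 1.26 RPKM), and Pde11a 2.10-fold lower (1.04 and 0.493 RPKM). Pde5a, the cyclic GMP-specific target of sildenafil, stood at 1.49 and 0.520 RPKM, 2.86-fold lower (interval 2.55 to 3.21). Pde10a was the 1 higher gene of the dual class, and 5 of 6 measured genes were lower (83.3%, beside 67.1% of all genes). Of these only Pde1a and Pde11a were at least 2-fold lower, and all 5 lay under 5 RPKM, where 23.5% of all genes were. Pde1c and Pde11a, and also Pde5a, are below 1 RPKM in mutant and so had to be lower to be listed. With the level trend removed, Pde2a (0.06) and Pde11a (0.95) were higher, while Pde1a, Pde1c and Pde3a stayed lower (log2). A pair of genes carries the name without the enzyme activity. Pde6d, a chaperone of prenylated proteins, stood at 18.6 and 20.2 RPKM and Pde4dip, the scaffold protein myomegalin, at 5.17 and 5.35 RPKM, both within 1.1-fold.

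The promoters of Pde10a, Gnb2 and Gnb1 are shown as those of the phosphodiesterase gene past the size rule and of the general beta subunit genes, and that of Prkar1a because it is the most abundant member. They are RefSeq sequences of GRCm38.p6, from 250 bases before to 50 after a transcription start, written 5′ to 3′ along the gene. Capitals mark the letters of 4 motifs on either strand, TGACG (the core of the cyclic AMP response element), TAATGG (a homeodomain motif that Isl1 can bind), CCAAT (the CCAAT box) and, as the GC box, GGGCGG, each read also as its reverse complement. Neighbouring GGGCGG matches in Gnb1 overlap, as do the cores within the full element of Prkar1a.
Pde10a, upstream start (chr17:8801495-8801794, plus strand): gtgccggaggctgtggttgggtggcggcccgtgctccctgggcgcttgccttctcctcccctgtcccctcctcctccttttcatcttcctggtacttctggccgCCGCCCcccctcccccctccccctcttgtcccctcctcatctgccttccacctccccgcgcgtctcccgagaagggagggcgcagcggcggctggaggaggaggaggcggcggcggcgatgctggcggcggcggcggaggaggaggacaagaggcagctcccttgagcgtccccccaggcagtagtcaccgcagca
Pde10a, downstream start (chr17:8849735-8850034, plus strand): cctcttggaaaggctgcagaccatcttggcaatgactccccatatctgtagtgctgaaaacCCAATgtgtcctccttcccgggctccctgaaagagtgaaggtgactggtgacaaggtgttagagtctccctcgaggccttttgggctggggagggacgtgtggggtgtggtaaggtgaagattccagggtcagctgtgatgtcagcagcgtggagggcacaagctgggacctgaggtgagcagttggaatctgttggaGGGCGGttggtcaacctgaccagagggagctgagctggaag
Gnb2 (chr5:137533257-137533556, minus strand): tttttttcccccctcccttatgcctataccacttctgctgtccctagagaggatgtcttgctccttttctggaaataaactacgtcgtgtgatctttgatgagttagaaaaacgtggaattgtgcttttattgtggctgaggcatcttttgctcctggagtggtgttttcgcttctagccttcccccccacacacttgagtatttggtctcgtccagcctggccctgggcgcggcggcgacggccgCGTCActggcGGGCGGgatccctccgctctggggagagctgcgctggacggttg
Gnb1 (chr4:155491111-155491410, plus strand): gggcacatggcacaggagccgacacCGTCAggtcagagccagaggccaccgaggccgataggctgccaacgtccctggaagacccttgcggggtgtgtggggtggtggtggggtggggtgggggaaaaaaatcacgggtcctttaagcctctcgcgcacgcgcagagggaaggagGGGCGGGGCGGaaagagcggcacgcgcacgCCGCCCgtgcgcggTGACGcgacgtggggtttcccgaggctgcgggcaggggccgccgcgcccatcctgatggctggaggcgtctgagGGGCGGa
Prkar1a (chr11:109650699-109650998, plus strand): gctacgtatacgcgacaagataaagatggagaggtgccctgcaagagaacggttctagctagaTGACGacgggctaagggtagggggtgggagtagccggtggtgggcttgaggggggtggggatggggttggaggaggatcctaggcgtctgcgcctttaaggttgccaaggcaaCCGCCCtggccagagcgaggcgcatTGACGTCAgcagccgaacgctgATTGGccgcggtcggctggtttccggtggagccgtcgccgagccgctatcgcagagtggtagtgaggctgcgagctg

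The window of Prkar1a holds the full palindromic element TGACGTCA from 49 bases before the start. That element is in 1.79% of all 32851 promoters of the same length, and among 51 members with a promoter in the table it was found in Prkar1a alone. The core TGACG was in 22 of 94 member promoters (23.4%), beside 20.8% of all promoters. Gnb1 has it from 31 bases and, on the opposite strand, from 225 bases before the start, Gnb2 on the opposite strand from 4 bases before the start, and neither Pde10a window holds it. The motif TAATGG was in 8 of 94 member promoters (8.51%), beside 7.73% of all, and in none of the 5 windows shown. CCAAT was in 35.1% and GGGCGG in 53.2% of member promoters, beside 37.4% and 35.7% of all. A match of letters is not a binding site, and no window was measured for binding here.

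Protein kinase A is a tetramer of regulatory subunits that bind cyclic AMP and catalytic subunits that they hold inactive. All 5 of its measured genes lay within 1.5-fold. The regulatory genes Prkar1b and Prkar2a differed most, and Prkar1b lay above the 90th percentile of genes of like level (0.50 beside 0.37, log2). Prkar1a, the type I alpha regulatory subunit gene, stood at 204 RPKM in control and 186 RPKM in mutant, 1.10-fold lower (interval 1.09 to 1.11). It was the most abundant of all 62 genes in both libraries and made up 95.6% and 94.3% of the summed regulatory subunit RPKM. Prkar1b, the type I beta gene known best from brain, stood at 6.52 and 9.23 RPKM, 1.42-fold higher (interval 1.33 to 1.503). Prkar2a, a type II gene, stood at 2.81 and 1.94 RPKM, 1.45-fold lower, and lies opposite Wdr6 (52.4 and 28.6 RPKM) over its whole span.

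The catalytic subunit genes were lower by little. Prkacb stood at 13.1 and 11.8 RPKM, 1.11-fold lower (interval 1.06 to 1.17). Prkaca stood at 5.25 and 5.01 RPKM, and its interval included no difference (0.967 to 1.14 for control over mutant). Summed catalytic RPKM was 18.4 in control and 16.8 in mutant, 91.5% of control, beside 92.3% for the regulatory subunits.

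**Figure D3:**
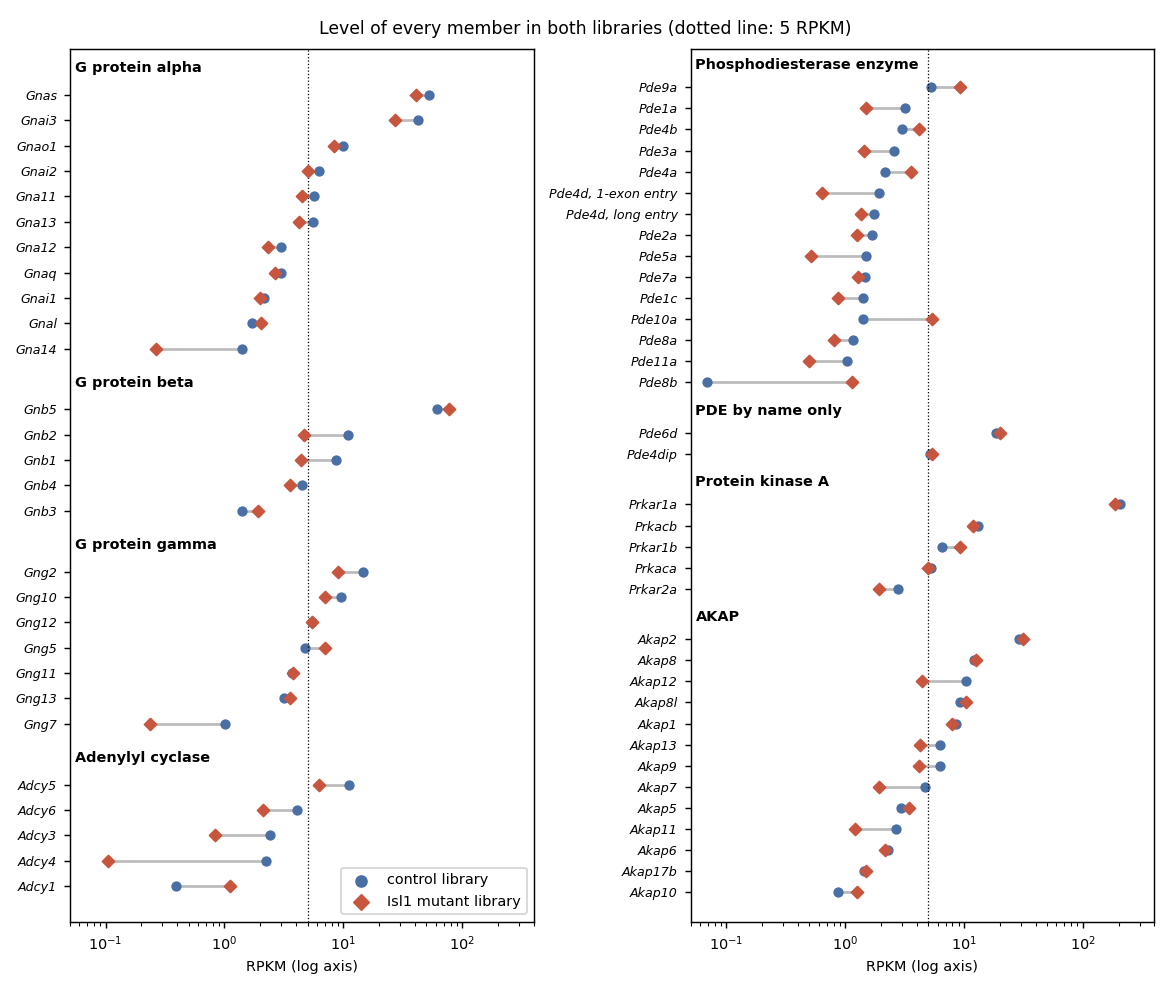
RPKM on a log axis of each of the 63 entries in control (blue circles) and in mutant (red diamonds), grouped by role, with a dotted line at 5 RPKM. The points of Prkar1a, Prkaca and Prkacb nearly coincide. Those of Gnb1, Gnb2, Adcy3, Adcy4, Adcy5 and Adcy6 lie apart with mutant lower, and those of Adcy1, Pde10a and Pde8b lie apart with mutant higher.

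Anchoring proteins (AKAPs) hold protein kinase A beside its targets, and 10 of the 13 measured genes were within 1.5-fold. Akap12 (ENSMUSG00000038587, chromosome 10, 5987073 to 6080212, minus strand, mm9), whose product gravin gathers the kinase at beta-adrenergic receptors, stood at 10.3 RPKM in control and 4.47 RPKM in mutant. It was 2.31-fold lower, with an interval of 2.22 to 2.41 on no fewer than 7045 and 3291 reads. Akap7, which ties the kinase to L-type calcium channels and phospholamban in heart, stood at 4.71 and 1.93 RPKM, 2.43-fold lower (interval 2.23 to 2.66), just under the level floor. Akap11 was 2.21-fold lower (2.68 and 1.21 RPKM) at a level where the median log2 ratio was -0.62.

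Anchors of other targets differed less. Akap9, whose product yotiao binds the Kcnq1 potassium channel, was 1.497-fold lower (6.23 and 4.17 RPKM) and Akap13 1.46-fold lower (6.26 and 4.29 RPKM). Akap6, the anchor at the nuclear envelope of muscle cells and at the ryanodine receptor, stood at 2.28 and 2.18 RPKM, with an interval that included no difference. Akap5, an anchor at calcium channels and adrenergic receptors, was 1.18-fold higher (2.93 and 3.46 RPKM). Akap1, the anchor of the outer mitochondrial membrane, was 1.08-fold lower (8.55 and 7.95 RPKM). The nuclear Akap8 and its relative Akap8l were 1.03-fold and 1.12-fold higher, at 12.2 and 12.6 RPKM and at 9.27 and 10.4 RPKM. Akap2 was the most abundant anchor, at 29.1 and 31.1 RPKM (1.07-fold higher), but it lies wholly within AF064781 on the same strand, at 38.8 and 41.1 RPKM. Akap10 and Akap17b were low, with mutant over control ratios of 1.46 and 1.04.

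Beyond the members, 113 other genes of the pathway were listed and 67 were measured. Of these, 50 were lower (74.6%) and 17 higher, beside 67.1% lower over all genes, which is also the share to set beside each list's count below. The median log2 ratio was -0.51, beside -0.22 over all genes. Of 37 that reached 5 RPKM, 0 were higher by the size rule, beside 1.01% of all genes, and 1 was lower, beside 2.68%. With a minimum ratio of 1.5 at 5 RPKM, 2 were higher and 10 lower, beside 4.64% and 14.6% of all genes at that level. For the members themselves this rule gave 2 higher (6.90%) and 6 lower (20.7%) of 29.

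RGS proteins, which end the active state of alpha subunits, held the gene past the size rule. Rgs4, known to limit inhibitory signalling in mouse sinoatrial cells, stood at 48.9 RPKM in control and 12.7 RPKM in mutant, 3.85-fold lower, with an interval of 3.72 to 3.97 on no fewer than 17173 and 4827 reads. Rgs6, the R7 class partner of the Gnb5 product in heart, stood at 34.2 and 22.7 RPKM, 1.504-fold lower (interval 1.46 to 1.55). Rgs11, another R7 member named after its values were seen, stood at 1.32 and 4.88 RPKM, 3.70-fold higher (interval 3.19 to 4.30). So, of both measured R7 partners of Gnb5, the abundant Rgs6 was lower and the low Rgs11 higher, beside the 1.26-fold higher Gnb5. Rgs12 was 1.89-fold lower (35.1 and 18.5 RPKM). Of 11 measured RGS genes 8 were lower, and the median of the 11 was -0.53. The 8 include Rgs18 (1.08 and 0.0399 RPKM), for which whole reads were not recovered.

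Upstream of the G proteins, the muscarinic receptor gene Chrm2 stood at 2.43 and 1.75 RPKM, 1.38-fold lower (interval 1.28 to 1.495), and Adora1, the adenosine receptor gene, at 10.2 and 7.57 RPKM, 1.35-fold lower (named after its values were seen, as the other of both measured receptors). Adrb1 and Npr1 were not analysed here. Receptor kinases and arrestins were lower in 5 of 6 cases (83.3%, beside 67.1% of all genes), and all 6 lay under 5 RPKM, where ratios of all genes also ran low. Among other partners, Gnb1l and Rasd1, a Ras-like regulator of G protein signalling, were 1.89-fold (5.43 and 2.88 RPKM) and 1.52-fold lower (6.32 and 4.17 RPKM). Phospholipase C beta genes were lower in 3 of 3 cases, with Plcb4 at 12.9 and 7.54 RPKM, 1.71-fold lower.

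On the cyclic GMP side, Prkg1, the gene of cyclic GMP-dependent protein kinase, stood at 5.99 and 4.03 RPKM, 1.49-fold lower (interval 1.37 to 1.62). Of 6 genes of cyclic GMP synthesis, receptors and kinase, 4 were lower and 2 higher. For 1 of the lower ones, Gucy1a2 (1.24 and 0.0850 RPKM), whole reads were not recovered and no fold is given.

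Genes of cyclic AMP-binding Popeye proteins, protein kinase inhibitors and EPAC were the list with most members higher, 4 of 6, with a median log2 ratio of 0.30. Bves, a Popeye gene, stood at 10.48 and 15.9 RPKM, 1.51-fold higher (interval 1.43 to 1.601). Popdc2, another Popeye gene needed for normal pacing under stress in mice, stood at 167 and 224 RPKM, 1.34-fold higher (interval 1.33 to 1.36). Pkia, a protein kinase inhibitor gene, was 1.11-fold lower (14.7 and 13.2 RPKM).

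Among targets of the kinase and CREB genes, 10 of 15 were lower (66.7%), a share near the 67.1% of all genes, with a median of -0.38. Hcn4 was 3.67-fold lower (interval 2.80 to 4.85) and Ryr2, which encodes the ryanodine receptor, 1.55-fold lower (10.4 and 6.72 RPKM). Pln, which encodes the calcium pump regulator phospholamban, was 1.30-fold lower (17.8 and 13.7 RPKM). Crebbp, the CREB-binding coactivator gene, was 1.70-fold lower (9.84 and 5.79 RPKM). Further anchoring protein genes were lower in 9 of 10 cases, with Sphkap and Arfgef1 each 1.68-fold lower and Mtus2 1.52-fold higher (18.7 and 28.4 RPKM).

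**Figure D4:**
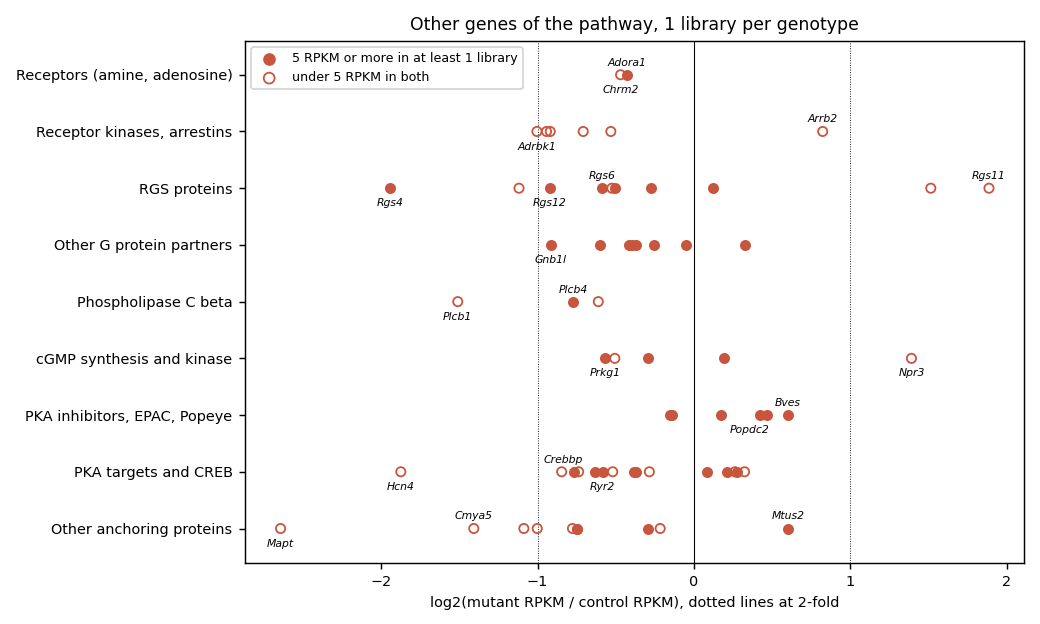
log2 ratio of mutant to control RPKM (horizontal axis) for other genes of the pathway by list, filled where a gene reached 5 RPKM in at least 1 library and open where it did not. Rgs18 and Gucy1a2, for which whole reads were not recovered, are left out. Rgs4 (-1.94) is the lowest filled point, and the Popeye gene Bves (0.60) and Mtus2 (0.60) are the highest.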

How the data were processed

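RNA was measured in 1 library of pooled, sorted sinoatrial node cells per genotype. Trim Galore, FastQC, TopHat2 and Bowtie2, with mm9 as the build, come from the submitters' processing notes, which give no versions, and no source used here names the program that computed gene values. The deposited table gives 1 value per gene and library over constitutive exons, per the file headers, and names no unit. The values were taken as RPKM made by the authors, because value times length gave whole reads within 0.01 in 284 of 284 small RNA genes in control and 276 in mutant. These steps also gave the library totals. The log2 ratio deposited by the authors equals that of both RPKM values, and the signed fold score deposited by the authors was not used.

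Whole reads were recovered for 12450 rows (99.1%) and all 63 member rows, as the smallest numbers that fit both values, so true numbers can be multiples. Fold intervals are Clopper-Pearson intervals on these reads, at 95%. Folds are ratios of RPKM as deposited, with no pseudocount, and only the size rule adds 1 RPKM, which understates the change of low genes. A symbol with several entries is counted by the entry with the higher mean. The member stems and pathway lists were chosen with earlier results of these data known. Named genes are all members, pathway genes at 5 RPKM with a ratio of 1.5 or more, and a fixed few. Overlapping partners, Rgs11, Adora1, Rgs18 and Gucy1a2 lie outside that rule and were named after their values were seen, and 13 members overlap another gene of the table. GENCODE release M 21 gave names only, and promoters are RefSeq windows on GRCm38.p6, with no coordinates moved between builds. Scripts used Python 3.11.15, pandas 2.3.3 and scipy 1.17.1 and were tested on simulated data.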

Additional observations from a re-analysis of the deposited data

How the results depend on the processing

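No paired analysis was possible because each genotype has 1 library. Main counts were 1 member higher (Pde10a) and 2 lower (Gnb2 and Akap12) by the size rule. With a pseudocount of 5 these were 0 and 0, beside 36 and 36 of all genes. With the level trend removed (median of 20 level bins) they were 1 and 0, beside 89 and 98. Scaling the mutant library to the median ratio or to the 75th percentile left 1 lower gene, Gnb2, in each, beside 143 and 130 lower genes. With no floor, or a floor of 1 RPKM, 2 were higher and 3 lower, beside 139 and 489 of all 12446 genes. Pde8b and Adcy4 were added. Pde8b is below 1 RPKM in control and Adcy4 in mutant, so each had to differ to be listed. At 1.5-fold, 2 were higher and 6 lower of 29, beside 239 and 750 of 6343 genes. The members' median log2 ratio of -0.28 became -0.27, -0.26 and -0.10 with pseudocounts of 0.1, 0.5 and 5, -0.21 and -0.18 under the 2 scalings, -0.15 with a floor of 5 RPKM and -0.31 with every row kept. It turned to 0.0515 with the level trend removed, where the median of all genes is 0 by construction. For the other pathway genes (0 higher, 1 lower) the count of higher genes was 1 under either scaling, with no floor and with a floor of 1 RPKM, and the count of lower genes was 4 without a floor or with a floor of 1 RPKM and 7 at 1.5-fold. Beside these pathway counts stand the same all-gene counts, for 67 pathway genes without a floor and 37 at 5 RPKM. The cause of the changes between settings was not tested beyond what each setting itself alters. Over all members and settings, 449 values stayed inside the counting interval of the main value and 171 lay outside it. The floor settings, the 1.5-fold threshold and keeping every row do not alter the ratio of an entry, so their values lay inside in advance. None of the 3 genes past the size rule changed sign. Several other members turned from lower to higher with the level trend removed, such as Pde11a (-1.07 to 0.946) and Pde8a (-0.54 to 0.29, log2). Without replicates, no spread between embryos or libraries can be given, and Pde8b, with as few as 3 control reads, is limited by depth.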
